A study of Mus musculus with 12 samples.

Results

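Interferon-stimulated genes are the genes that cells switch on when an interferon binds its receptor. This list of 40 was given by name, of which 39 had a row of their own among the 22180 genes measured. The member left out, Ifi27l2a, shares its row with Ifi27l2b and was not analysed here. The question was whether these genes differ in dorsal skin of C57Bl/6 mice with psoriasis-like inflammation from an IL-17C transgene, with IL-6 and without it.

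Type I and type III interferons signal through receptor-bound JAK kinases to a complex that holds STAT2 and IRF9 and binds the interferon-stimulated response element in promoters. Interferon gamma acts through another promoter element, the gamma-activated site. The induced proteins sense viral nucleic acids, block translation, cut RNA, attract lymphocytes and process antigen. In keratinocytes and in plasmacytoid dendritic cells of human psoriasis plaques an interferon program is well known.

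The 12 arrays hold total RNA of 6 groups, each with n = 2 pools of mice of both sexes, 1 from animals aged 10 weeks and 1 from animals aged 14 weeks. WT is plain C57Bl/6 skin, and IL-6KO is skin of mice labelled as lacking IL-6 and carrying no transgene. IL-17C+ pools carry the transgene, and IL-17C+KO pools carry it on the IL-6 knockout, each sampled from diseased (involved) and from uninvolved areas, which may come from the same mice. A pool held 4 mice where it was WT or IL-6KO skin of the younger age and 5 elsewhere. The pool sizes sum to 58, which counts a mouse again if it gave skin to more than 1 pool. One label tags the IL-6KO pools as involved although their titles name no lesion, and the promoter that drives the transgene was not given in the labels. Values are log2 array intensities, and a difference is given with the standard error of limma, a linear model that shares the spread over all genes. The p-values thus cover the spread of these pools alone around their group and age, which may be partly technical. As the 2 pools of a group differ in age, that spread also holds any effect of age that differs between groups. Below, a group's pair of values is its 10-week array and then its 14-week array.

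The labelled tissue showed in its markers: Krt14 of basal keratinocytes lay between 9.49 and 11.31 and Col1a1 of fibroblasts between 10.59 and 13.34. The genes named in the labels followed them in part. Il17c was higher in IL-17C+ involved skin than in WT by 1.40 ± 0.30 (adjusted p = 0.0328 in limma). It read 4.74 and 4.16 in skin labelled IL-17C+ uninvolved, however, and 6.30 and 6.17 in IL-6KO skin, which carries no transgene. Il6 was highest, at 4.93 and 5.00, in skin labelled IL-17C+KO uninvolved, 2.23 ± 0.41 above IL-6KO skin (adjusted p = 0.0388 in limma). Which part of either gene the probes read is not given, so every group name below is a label. The mean of 12 skeletal muscle markers ranged from 7.79 on the 14-week IL-17C+ involved array to 10.81 on the 14-week WT array, and that of 7 neutrophil markers from 3.65 on the latter to 8.12 on the 14-week IL-17C+KO uninvolved array. In bulk skin, fewer cells of a type and less RNA per cell cannot be told apart.

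Promoters of the list carry the element it is known for more often than those of all genes, though not in most cases. RefSeq windows of GRCm38.p6, 250 bases before to 50 bases after a gene's start, were found for 30 of the 39 genes. The core of the interferon-stimulated response element, GAAA then any 2 bases then GAAA, searched on both strands, was in 14 of these 30 genes (46.7%), against 3.99% of the 27025 genes with a window. The gamma-activated site, TTC then any 3 bases then GAA, the same on both strands, was in 7 of 30 (23.3%) against 9.55% of all genes, and 3 genes held both motifs. A match is a run of letters and not a measured binding site. The 6 stretches below, all upstream of the start and read 5′ to 3′ on the gene's strand, show the core in capitals, which runs together where matches overlap. They come from genes that are named further on, and not all such genes with an upstream match are shown.
Isg15: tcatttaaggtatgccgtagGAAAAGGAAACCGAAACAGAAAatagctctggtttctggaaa
Bst2: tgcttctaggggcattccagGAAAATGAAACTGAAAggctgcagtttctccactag
Ifit1: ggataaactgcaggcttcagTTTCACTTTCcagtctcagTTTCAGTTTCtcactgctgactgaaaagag
Gbp3: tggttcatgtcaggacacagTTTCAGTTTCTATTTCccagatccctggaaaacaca
Gbp7: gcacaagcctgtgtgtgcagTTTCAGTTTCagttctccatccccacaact
Rsad2: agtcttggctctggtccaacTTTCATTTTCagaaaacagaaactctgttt
Isg15 lies on the minus strand at chr4:156200855-156200916, with 3 overlapping matches that begin 78 to 66 bases before the start. Bst2 is on the minus strand at chr8:71537567-71537622 and has 2 overlapping matches. Ifit1, on the plus strand at chr19:34640765-34640833, has 2 separate matches. Gbp3 and Gbp7 lie on the plus strand, at chr3:142559979-142560034 and chr3:142530263-142530312, and Gbp3 has 2 overlapping matches where Gbp7 has 1. Rsad2, on the minus strand at chr12:26456543-26456592, has 1 match.

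No member passed the test in any comparison. Over 12 comparisons, 9 of them between groups, limma gave 468 tests of members, of which 0 had a Benjamini-Hochberg adjusted p under 0.05 over all genes and 64 (13.7%) had an unadjusted p under 0.05, against 8.58% of the tests of all genes. The lowest adjusted p was 0.0541, for Usp18 in the test of whether the difference between involved and uninvolved skin depends on the IL-6 label. Of the 39, 16 members lay above the array median of all genes on all 12 arrays, 8 lay below it on all arrays and 15 crossed it. The gene medians of the arrays were 4.51 to 4.62. Relative to each gene's own mean, the heat map of all members shows 1 column that stands apart, IL-17C+ uninvolved skin at 10 weeks.

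**Figure D1:**
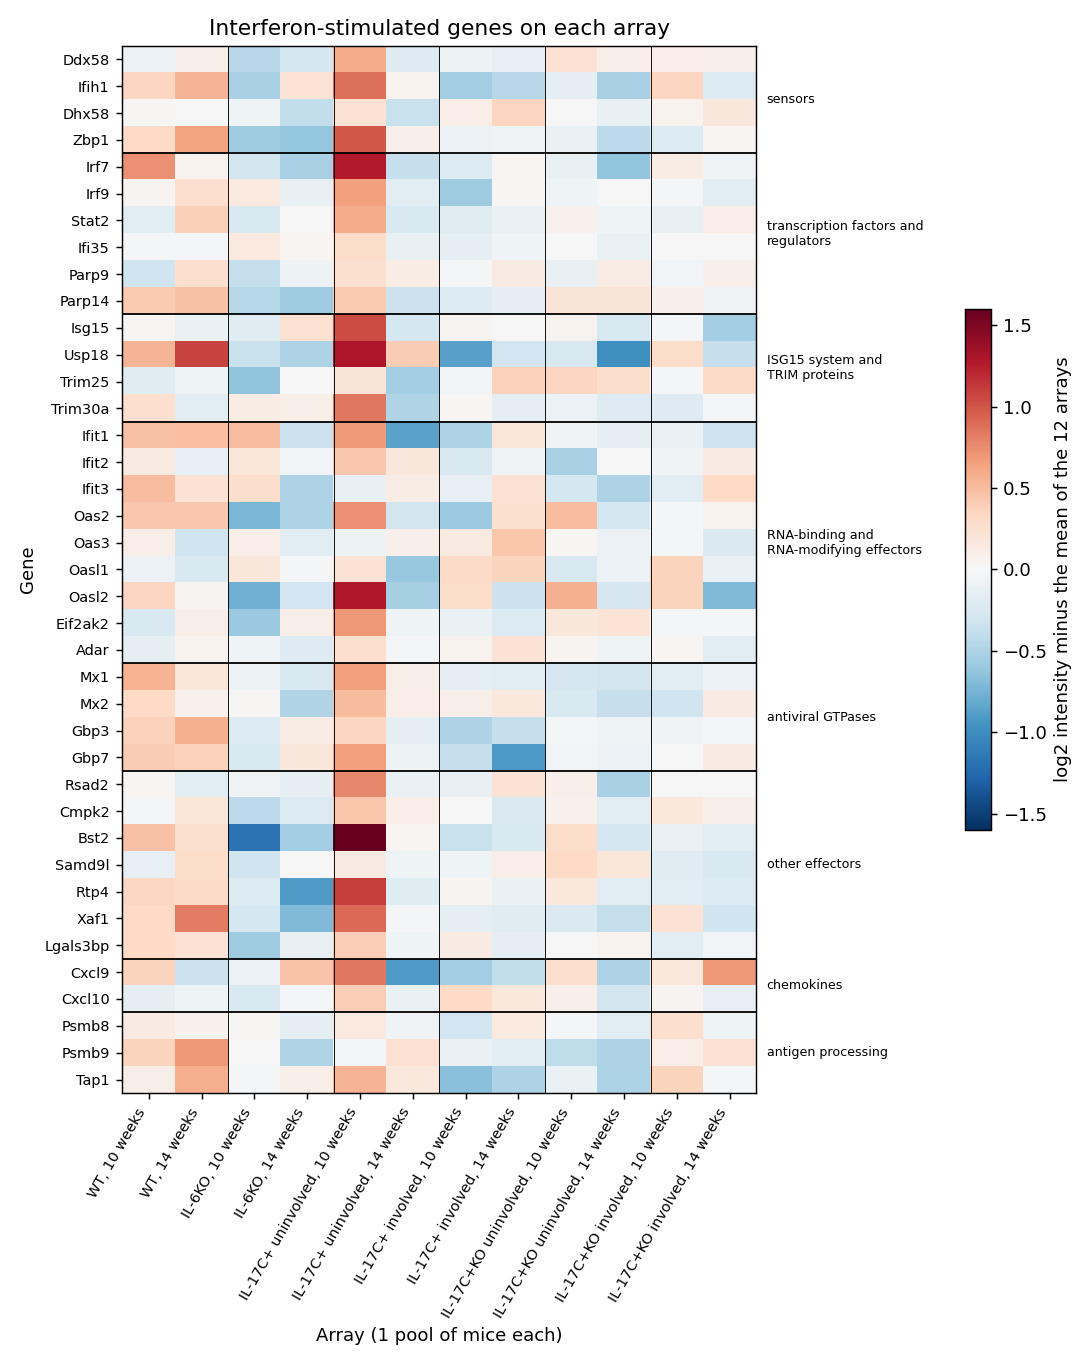
Log2 intensity of 39 interferon-stimulated genes (rows, by role) on 12 arrays (columns), each minus the gene's mean over the arrays. Red is above and blue below that mean, and 27 of 39 genes have their highest value on the IL-17C+ uninvolved array at 10 weeks.

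Does inflamed transgenic skin carry an interferon response? Between skin labelled IL-17C+ involved and WT, 0 of 39 members passed limma's test while 399 of 22180 genes did (1.8%). The members' differences ran from -1.40 to 0.51 with a median of -0.26, against 0.01 over all genes, and 30 of 39 were negative, as were 48.6% of all genes. Without the 10-week IL-17C+ involved array the median was -0.07. At an unadjusted p under 0.05 stood 9 members, all with negative differences, where 5.52% of all genes were negative at that level, and 0 members with positive differences against 6.46%. The 2 arrays of each group did not overlap for 19 members lower in involved skin (16.4% of all genes) and for 6 higher (20.4%). For 38 of 39 members the 95% interval of the difference lay below a doubling, Oasl1 being the exception, while 17 intervals reached down to a halving. The same WT arrays serve in every comparison with WT. On the 10-week WT array 17% of all genes had their highest value and 18.1% their lowest, the largest shares of any array. Among the members, 1 had its highest value there and 0 their lowest.

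The sensors bind foreign or misplaced nucleic acid. For Ifih1 (MDA5, a sensor of long double-stranded RNA), the WT pair read 6.71 and 6.91, the IL-6KO pair 5.84 and 6.59, the IL-17C+ involved pair 5.81 and 5.92, the IL-17C+ uninvolved pair 7.25 and 6.42, the IL-17C+KO involved pair 6.70 and 6.14 and the IL-17C+KO uninvolved pair 6.22 and 5.85. Both IL-17C+ involved arrays lay below both WT arrays, with a difference of -0.95 ± 0.33 (adjusted p = 0.232 in limma). For Zbp1, which senses Z-form nucleic acid and can trigger cell death, the WT pair read 5.12 and 5.44, the IL-6KO pair 4.22 and 4.17, the IL-17C+ involved pair 4.70 and 4.74, the IL-17C+ uninvolved pair 5.79 and 4.87, the IL-17C+KO involved pair 4.57 and 4.82 and the IL-17C+KO uninvolved pair 4.68 and 4.37. Both IL-6KO arrays were the lowest of the 12, and differed from WT by -1.08 ± 0.29 (adjusted p = 0.178). Ddx58 (RIG-I) and its relative Dhx58 had no unadjusted p under 0.05 against WT in IL-17C+ involved, IL-17C+ uninvolved or IL-6KO skin.

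Among transcription factors and regulators, Irf7 amplifies type I interferon production. For Irf7, the WT pair read 6.07 and 5.40, the IL-6KO pair 5.05 and 4.82, the IL-17C+ involved pair 5.13 and 5.38, the IL-17C+ uninvolved pair 6.61 and 4.97, the IL-17C+KO involved pair 5.46 and 5.29 and the IL-17C+KO uninvolved pair 5.22 and 4.71. The highest value was that of IL-17C+ uninvolved skin at 10 weeks, and both IL-6KO arrays lay below both WT arrays. For Parp14, an ADP-ribosyltransferase, the WT pair read 6.53 and 6.59, the IL-6KO pair 5.67 and 5.55, the IL-17C+ involved pair 5.90 and 5.97, the IL-17C+ uninvolved pair 6.54 and 5.78, the IL-17C+KO involved pair 6.20 and 6.06 and the IL-17C+KO uninvolved pair 6.32 and 6.33. The IL-6KO arrays were again the lowest, and differed from WT by -0.95 ± 0.25 (adjusted p = 0.175 in limma). Its relative Parp9, Stat2 and Irf9 of the receptor-driven complex, and Ifi35 had no unadjusted p under 0.05 in IL-17C+ involved or IL-6KO skin against WT.

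Usp18 had the largest difference of any member between IL-17C+ involved skin and WT. It encodes the protease that removes ISG15 from proteins and also damps signalling at the type I receptor. For Usp18, the WT pair read 5.29 and 5.83, the IL-6KO pair 4.40 and 4.26, the IL-17C+ involved pair 3.88 and 4.45, the IL-17C+ uninvolved pair 6.05 and 5.16, the IL-17C+KO involved pair 5.05 and 4.39 and the IL-17C+KO uninvolved pair 4.50 and 3.78. Every WT and IL-17C+ uninvolved array lay above every array of the other 4 groups. Usp18 lay below the array median on 7 of 12 arrays, among them both IL-17C+ involved arrays. Involved IL-17C+ skin differed from WT by -1.40 ± 0.35 (2.63-fold lower, adjusted p = 0.0711 in limma) and from IL-17C+ uninvolved skin by -1.44 ± 0.35 (adjusted p = 0.0696). IL-6KO skin, set against the same WT arrays, differed by -1.23 ± 0.35 (adjusted p = 0.226). Without the 10-week WT array the first difference was -1.85 and passed (adjusted p = 0.0412), and without the 10-week IL-17C+ involved array it was -0.93 (adjusted p = 0.613). With the mean of the skeletal muscle markers as a covariate it was -0.83. The slope of that covariate comes from differences between the 2 arrays of a group, so this fit cannot show the part of muscle. Of these 12 markers 11 were past the threshold in the same comparison, all lower, and their part was not tested.

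For Isg15, the ubiquitin-like protein that Usp18 removes, the WT pair read 4.33 and 4.20, the IL-6KO pair 4.12 and 4.55, the IL-17C+ involved pair 4.35 and 4.31, the IL-17C+ uninvolved pair 5.36 and 4.03, the IL-17C+KO involved pair 4.27 and 3.77 and the IL-17C+KO uninvolved pair 4.37 and 4.06. One array was high, that of IL-17C+ uninvolved skin at 10 weeks, and the difference between IL-17C+ involved skin and WT was 0.07. For Trim25, the ligase that activates RIG-I, the same difference was 0.29, and for Trim30a, a TRIM protein with near-identical relatives, -0.12. None of these 3 had an unadjusted p under 0.05 there or between IL-6KO and WT skin.

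**Figure D2:**
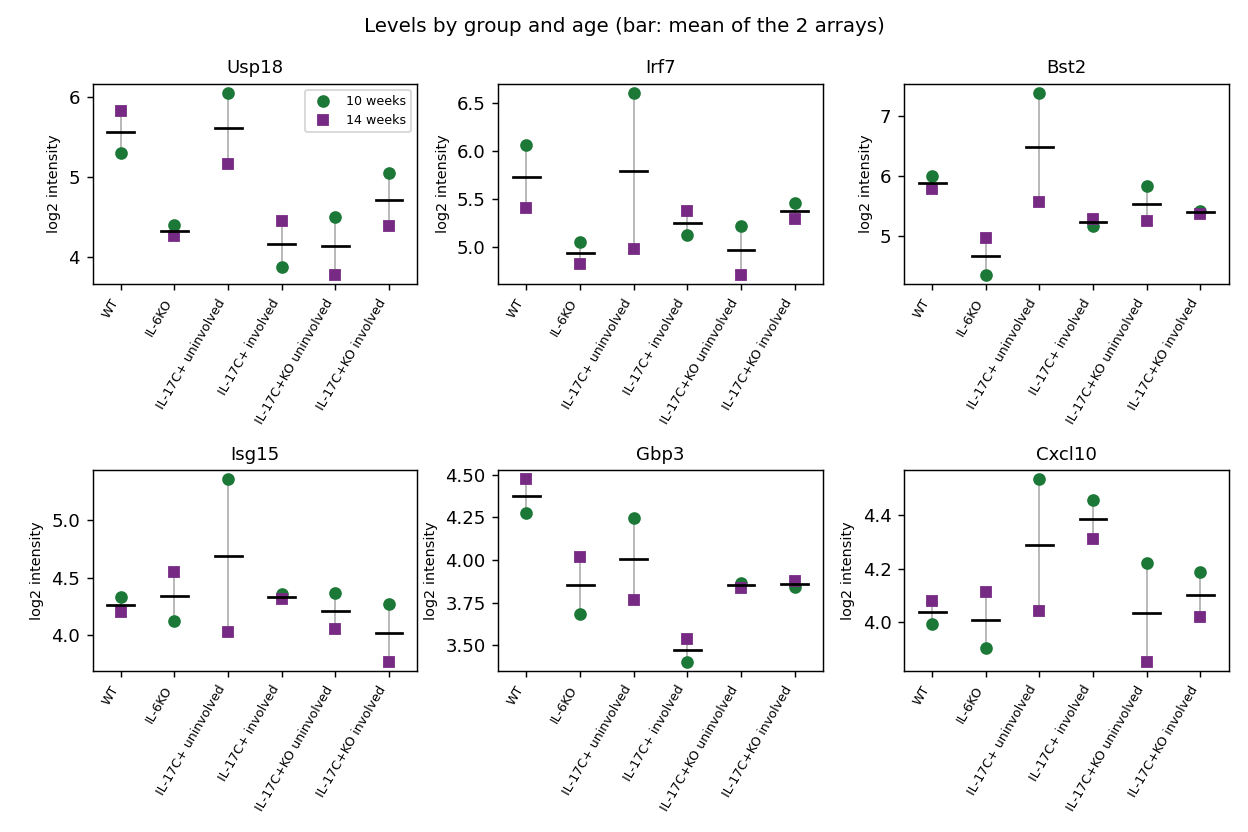
Log2 intensity (vertical axis) of Usp18, Irf7, Bst2, Isg15, Gbp3 and Cxcl10 in the 6 groups, with circles for the 10-week and squares for the 14-week array and a bar for the mean of the 2. Usp18 and Gbp3 are low in IL-17C+ involved skin at both ages, and Bst2 reaches 7.39 on the 10-week IL-17C+ uninvolved array alone.

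The 9 genes that bind or modify RNA had a median difference of -0.16 between IL-17C+ involved and WT skin, and 0 of 9 had an unadjusted p under 0.05 there. Ifit1, Ifit2 and Ifit3 hold back translation of foreign RNA, Oas2 and Oas3 make the messenger that activates RNase L, and Oasl1 and Oasl2 are their relatives. Eif2ak2 is the kinase PKR, and Adar edits double-stranded RNA. For Ifit1, the WT pair read 4.74 and 4.76, the IL-6KO pair 4.77 and 3.93, the IL-17C+ involved pair 3.78 and 4.47, the IL-17C+ uninvolved pair 4.96 and 3.42, the IL-17C+KO involved pair 4.17 and 3.94 and the IL-17C+KO uninvolved pair 4.22 and 4.11. The ages lay far apart in IL-17C+ uninvolved skin. Both WT arrays lay above those of IL-17C+ involved and of both IL-17C+KO groups, and the difference between IL-17C+ involved skin and WT was -0.63. For Oas2, the WT pair read 5.07 and 5.08, the IL-6KO pair 3.92 and 4.15, the IL-17C+ involved pair 4.07 and 4.90, the IL-17C+ uninvolved pair 5.38 and 4.36, the IL-17C+KO involved pair 4.61 and 4.69 and the IL-17C+KO uninvolved pair 5.14 and 4.36. IL-6KO skin was low on both arrays and differed from WT by -1.04 ± 0.37 (adjusted p = 0.393 in limma).

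All 4 antiviral GTPases had negative differences between IL-17C+ involved and WT skin, Mx2 by only -0.07. For Gbp3, a guanylate-binding protein that acts on intracellular pathogens, the WT pair read 4.28 and 4.47, the IL-6KO pair 3.68 and 4.02, the IL-17C+ involved pair 3.40 and 3.54, the IL-17C+ uninvolved pair 4.25 and 3.76, the IL-17C+KO involved pair 3.84 and 3.88 and the IL-17C+KO uninvolved pair 3.87 and 3.84. Gbp3 lay below the array median on all 12 arrays. The IL-17C+ involved arrays were the lowest, and differed from WT by -0.90 ± 0.23 (adjusted p = 0.0729 in limma). For Gbp7, of the same family, the WT pair read 5.90 and 5.86, the IL-6KO pair 5.26 and 5.68, the IL-17C+ involved pair 5.12 and 4.58, the IL-17C+ uninvolved pair 6.16 and 5.42, the IL-17C+KO involved pair 5.50 and 5.63 and the IL-17C+KO uninvolved pair 5.45 and 5.41. The same 2 arrays were the lowest for Gbp7, with a difference from WT of -1.03 ± 0.28 (adjusted p = 0.0997). Mx1 and Mx2, dynamin-like restriction factors, were also below the array median throughout, and the Mx1 gene is known to be defective in C57BL/6 mice.

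Of the other effectors, Bst2 (tetherin) holds budding virus at the cell surface. For Bst2, the WT pair read 6.00 and 5.78, the IL-6KO pair 4.34 and 4.97, the IL-17C+ involved pair 5.17 and 5.28, the IL-17C+ uninvolved pair 7.39 and 5.56, the IL-17C+KO involved pair 5.42 and 5.36 and the IL-17C+KO uninvolved pair 5.83 and 5.24. The value of 7.39 stood well above the rest, and IL-6KO skin was lowest, at -1.23 ± 0.43 from WT (adjusted p = 0.38 in limma). For Xaf1, a proapoptotic partner of XIAP, the WT pair read 4.36 and 4.85, the IL-6KO pair 3.76 and 3.34, the IL-17C+ involved pair 3.90 and 3.84, the IL-17C+ uninvolved pair 4.95 and 4.01, the IL-17C+KO involved pair 4.28 and 3.72 and the IL-17C+KO uninvolved pair 3.81 and 3.66. IL-6KO skin differed from WT by -1.06 ± 0.29 (adjusted p = 0.198), and IL-17C+ involved skin by -0.74 ± 0.29 (adjusted p = 0.318). The latter turned to 0.19 with the muscle marker mean as a covariate, a fit that cannot show the part of muscle. Rtp4, a chaperone of receptors, differed by -0.88 ± 0.30 between IL-6KO and WT skin (adjusted p = 0.377). Rsad2 (viperin), Cmpk2, a nucleotide kinase, Samd9l, a restriction factor, and Lgals3bp, a secreted glycoprotein, ran from -0.62 to 0.13 in IL-17C+ involved and IL-6KO skin against WT.

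The chemokines Cxcl9 and Cxcl10 draw T cells that bear CXCR3. For Cxcl9, the WT pair read 4.91 and 4.21, the IL-6KO pair 4.47 and 5.02, the IL-17C+ involved pair 4.00 and 4.16, the IL-17C+ uninvolved pair 5.40 and 3.65, the IL-17C+KO involved pair 4.73 and 5.26 and the IL-17C+KO uninvolved pair 4.83 and 4.06. For Cxcl10, the WT pair read 3.99 and 4.08, the IL-6KO pair 3.90 and 4.11, the IL-17C+ involved pair 4.46 and 4.31, the IL-17C+ uninvolved pair 4.54 and 4.04, the IL-17C+KO involved pair 4.19 and 4.02 and the IL-17C+KO uninvolved pair 4.22 and 3.85. Cxcl10 lay below the array median on all 12 arrays, and neither chemokine had an unadjusted p under 0.05 between IL-17C+ involved or IL-6KO skin and WT. Of 7 T cell markers, 5 lay below the array median on all arrays. In antigen processing, Tap1 is a subunit of the peptide transporter, and the WT pair read 6.81 and 7.29, the IL-6KO pair 6.69 and 6.80, the IL-17C+ involved pair 6.04 and 6.21, the IL-17C+ uninvolved pair 7.25 and 6.87, the IL-17C+KO involved pair 7.07 and 6.68 and the IL-17C+KO uninvolved pair 6.60 and 6.21. The IL-17C+ involved arrays lay below both WT arrays, by -0.92 ± 0.27 (adjusted p = 0.129 in limma). Psmb9, a subunit of the immunoproteasome, differed by -0.67 ± 0.25 (adjusted p = 0.265), and Psmb8, another subunit, by -0.17.

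**Figure D3:**
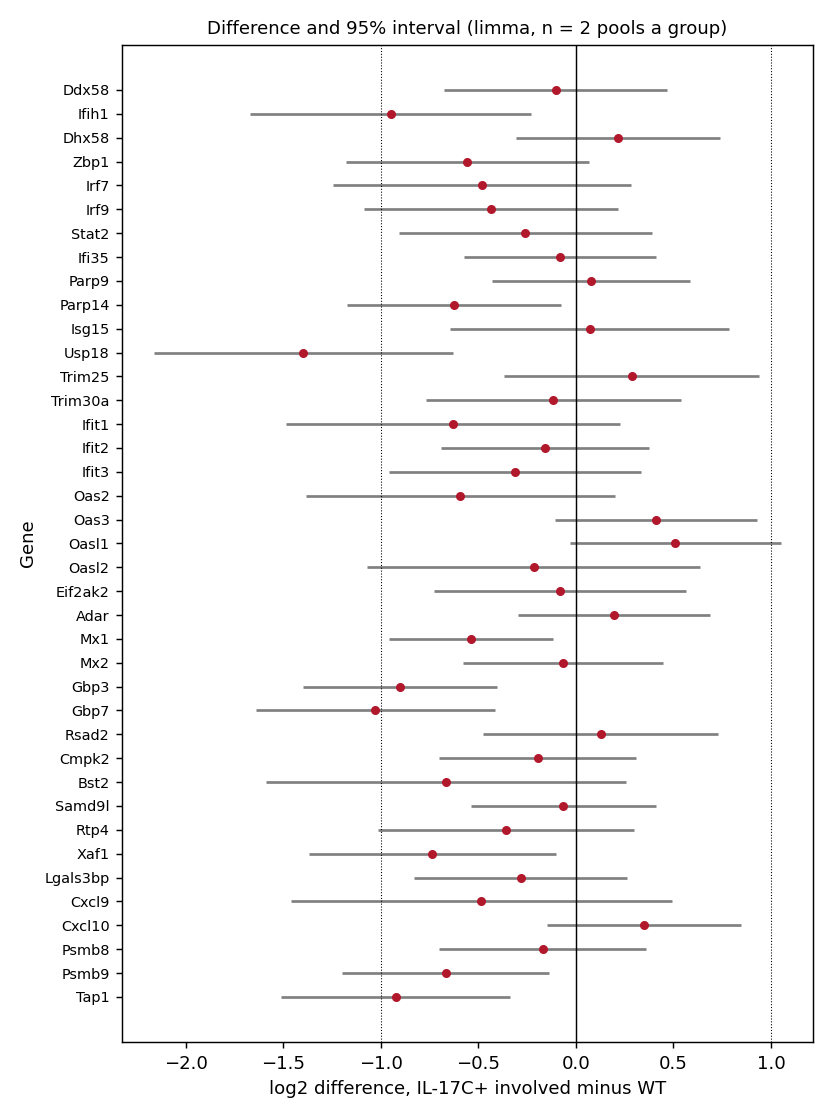
Log2 difference between IL-17C+ involved and WT skin (horizontal axis) for 39 interferon-stimulated genes, with the 95% interval of limma as a line and dotted lines at -1 and 1. Of the points, 30 lie below 0, and 9 intervals lie wholly below 0.

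Does skin labelled IL-6KO differ from WT? Between IL-6KO and WT skin 0 of 39 members passed in limma, where 101 genes did (0.455%), and the lowest adjusted p was 0.175. Negative differences were found for 32 members against 51.4% of all genes, with a median of -0.36 against -0.01. At an unadjusted p under 0.05 stood 12 members, all negative, against 4.24% of all genes negative and 4.17% positive at that level. Both IL-6KO arrays lay below both WT arrays for 21 members (14.7% of all genes) and above them for 2 (11.7%). Of the members, 11 had their lowest value of all arrays at 10 weeks and 7 at 14 weeks in IL-6KO skin, where 10.7% and 9.34% of all genes did. Without the 14-week WT array the median was -0.19, and without the 10-week IL-6KO array -0.20. Markers of other tissue parts differed too: 3 of 6 fibroblast markers were called lower (list median -1.55), 2 of 12 muscle markers lower (-1.59) and 3 of 8 hair follicle markers higher (2.22), while 0 of 7 macrophage markers were called (-0.51). With the muscle marker mean as a covariate the members' median was -0.40. The slope of that covariate comes from differences between the 2 arrays of a group, so the fit cannot show the part of muscle. The part of the fibroblast, hair follicle and macrophage differences was not tested.

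Against IL-6KO skin, transgenic skin labelled as lacking IL-6 showed few differences among the members. For IL-17C+KO involved against IL-6KO skin the median was 0.18, with 31 of 39 positive against 55.4% of all genes, and without the 10-week IL-6KO array it was 0.03. Limma called 0 members and 38 genes (0.171%), and 0 members had an unadjusted p under 0.05, where 1.61% of all genes were higher and 2.34% lower at that level. The arrays of the groups did not overlap for 11 members higher (16.7% of all genes) and 2 lower (11.8%). For IL-17C+KO uninvolved against IL-6KO skin the median was 0.00, with 0 members called (0.397% of all genes). Parp14 alone had an unadjusted p under 0.05 (0.72 ± 0.25, adjusted p = 0.469), where 4.74% of all genes were higher and 2.71% lower. The arrays did not overlap for 13 members higher (17.1%) and 5 lower (17%).

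Between involved and uninvolved IL-17C+KO skin the median was 0.05, with 0 members called (0.505% of all genes). Psmb9 alone had an unadjusted p under 0.05 (0.62 ± 0.25, adjusted p = 0.664), where 2.39% of all genes were higher and 3.72% lower. The arrays did not overlap for 8 members higher (21.6%) and 5 lower (17.6%). The neutrophil marker mean was 7.57 and 8.12 in IL-17C+KO uninvolved skin and 4.21 and 5.64 in involved skin. In IL-17C+ skin the order was the reverse, with 4.10 and 3.79 in uninvolved and 7.63 and 7.99 in involved skin. Whether the site labels of the IL-17C+KO pools hold was not tested. Comparisons by site rest on them, and so does every comparison that uses either of these groups. The members' means on the 4 IL-17C+KO arrays lay between 4.74 and 4.96.

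The next comparisons ask whether these genes differ in transgenic skin by the IL-6 label. Between IL-17C+KO and IL-17C+ involved skin the median was 0.11, with 0 members called (0.649% of all genes), and without the 10-week IL-17C+ involved array it was -0.11. Tap1 (0.75 ± 0.27) and Gbp7 (0.71 ± 0.28) had an unadjusted p under 0.05, where 4.85% of all genes were higher and 4.44% lower. The arrays did not overlap for 13 members higher (23.5%) and 6 lower (21.4%). The interaction of transgene and IL-6 in involved skin had a median of 0.49 against 0.00 over all genes. It was positive for 31 of 39 members and for 50.5% of all genes. Limma called 0 members (1.31% of all genes), and 11 members, all positive, had an unadjusted p under 0.05 (5.39% of all genes higher, 4.59% lower). It uses the IL-6KO and WT arrays of the comparisons above and is not independent of them. Like the comparison of involved skin by IL-6 label, it rests on the involved label of the IL-17C+KO pools, which was not tested. In the same interaction 10 of 12 muscle markers were called positive (list median 3.21), and 5 of 7 neutrophil markers (-3.43) and 4 of 8 hair follicle markers (-4.13) negative. With the muscle marker mean as a covariate, a fit that cannot show the part of muscle, the members' median was 0.57. The part of the other markers was not tested. The interaction of site and IL-6 was 2.02 ± 0.50 for Usp18 (adjusted p = 0.0541) and 1.41 ± 0.38 for Tap1 (adjusted p = 0.0831). It had 0 members called (2.58% of all genes) and 7 at an unadjusted p under 0.05, all positive (6.28% of all genes higher, 5.43% lower). Here 10 of 12 muscle markers were called positive (3.21) and 7 of 7 neutrophil markers negative (-7.36). The neutrophil marker mean was higher in IL-17C+KO skin labelled uninvolved than involved, and whether those site labels hold was not tested. The members' median was 0.32, or 0.35 with the muscle marker mean as a covariate, and -0.01 without the 10-week IL-17C+ uninvolved array.

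**Figure D4:**
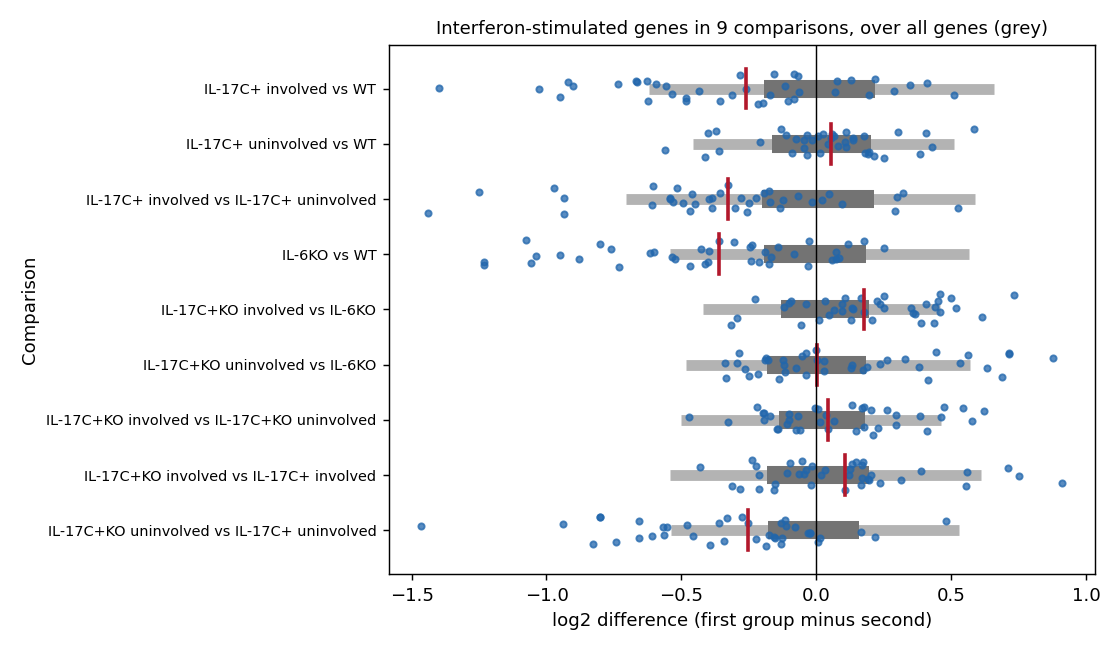
Log2 differences (horizontal axis) of 39 interferon-stimulated genes in 9 comparisons between groups, with a red bar at their median. Grey bands span the 5th to 95th (light) and 25th to 75th (dark) percentiles of all 22180 genes, and the medians lie furthest below 0 for IL-6KO against WT at -0.36 and IL-17C+ involved against uninvolved at -0.33.

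One pool of uninvolved transgenic skin carried most of the highest values. On the IL-17C+ uninvolved array at 10 weeks, 27 of 39 members had their highest value of the 12 arrays, where 8.68% of all genes did. Bst2 was 7.39 there and 5.56 on the 14-week array of the group, Oasl2 5.82 and 4.01, Cxcl9 5.40 and 3.65, Irf7 6.61 and 4.97, and Isg15 5.36 and 4.03. The 14-week array lay below the 10-week array for 36 of 39 members, with a median of -0.76, against 50.9% of all genes and a median of -0.01. The members with the response element core had a median of -0.81 (14 genes) and those without it -0.44 (16 genes), over ranges that overlap, while the 9 genes with no window had -0.76. Between IL-17C+ involved and WT skin the medians were -0.19 with the core, -0.21 without it and -0.54 with no window. Between IL-6KO and WT skin they were -0.30, -0.22 and -0.88. In the other 5 groups the median difference between the ages was -0.12 to 0.11. It was -0.12 in IL-17C+KO uninvolved skin, where 32 of 39 members were lower at 14 weeks against 50% of all genes. Over all groups 14 against 10 weeks gave a median of -0.11, or -0.03 without either IL-17C+ uninvolved array, with 0 members called by limma, 3 at an unadjusted p under 0.05, all negative (4.25% of all genes higher, 4.12% lower), and 0 of 22180 genes called (0%).

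The members' medians in the comparisons that use its group turn on this array. IL-17C+ uninvolved skin differed from WT by a median of 0.05, with 0 members called (0.0541% of all genes) and 0 at an unadjusted p under 0.05 (2.81% of all genes higher, 2.88% lower). The arrays did not overlap for 1 member higher (14.9%) and 3 lower (13%). At 10 weeks 35 of 39 members were higher than in WT (median 0.45), against 52.7% of all genes (median 0.04). At 14 weeks 35 of 39 were lower (median -0.36), against 50.1% of all genes (median -0.0006). IL-17C+ involved against uninvolved skin had a median of -0.33, with 0 members called (1.61%) and 7 at an unadjusted p under 0.05, all negative (5.46% of all genes higher, 6.73% lower). The arrays did not overlap for 2 members higher (24.5%) and 13 lower (23.4%), and without the 10-week array the median was 0.08. IL-17C+KO against IL-17C+ uninvolved skin had a median of -0.25, with 0 members called (0.712%) and 11 at an unadjusted p under 0.05, all negative (3.99% of all genes higher, 3.88% lower). The arrays did not overlap for 2 members higher (19.7%) and 12 lower (21%), and without the 10-week IL-17C+ uninvolved array the median was 0.02. Usp18 differed by -1.47 ± 0.35 between IL-17C+KO and IL-17C+ uninvolved skin (adjusted p = 0.112 in limma). Its difference was -1.55 at 10 weeks and -1.38 at 14 weeks. In that comparison 21 of 39 members had the same direction at both ages.

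Other markers were high on the same array. Of 7 macrophage markers 6 had their highest value there, with a list mean of 7.45 against 6.34 at 14 weeks. The fibroblast list mean was also the highest of the 12 arrays, 11.34 against 10.58 at 14 weeks, with 2 of 6 markers at their highest. The endothelial list mean was 6.51 against 5.77 at 14 weeks, with 0 of 5 markers at their highest. That list mean was highest, at 6.94, on the 14-week IL-17C+KO uninvolved array. The muscle marker mean was 10.67 there, and the mean of 5 plasmacytoid dendritic cell markers was 4.05, against 4.05 in WT at 10 weeks, with Siglech, Spib, Ccr9 and Clec4b1 below the array median on all arrays. The part of macrophages, fibroblasts and endothelial cells in the result was not tested. The plot of list means shows these values array by array.

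Other genes of the pathway were taken from 5 lists. Of 21 ligands 19 had a row, and 13 of these lay below the array median on all arrays, among them Ifnb1, between 2.19 and 3.04, and Ifng, between 3.02 and 3.68. The largest ligand difference between IL-17C+ involved and WT skin was that of Ifna2, at 0.71 ± 0.24, which did not pass (adjusted p = 0.198 in limma). Ligands had 22 tests (9.65%) at an unadjusted p under 0.05 against 8.58% over all genes. The single ligand that passed was Ifna15, an interferon alpha. Between IL-17C+KO and IL-17C+ involved skin it differed by -1.22 ± 0.24 (adjusted p = 0.0414 in limma), where 0.649% of all genes were called. It also passed in the test of whether the site difference depends on the IL-6 label (-1.65 ± 0.34, adjusted p = 0.022), with 2.58% called. Ifna genes are near-identical copies, so its signal may be shared with relatives. Receptors and signalling genes passed in 0 of 12 comparisons for 12 genes, with 11 tests (7.64%) at an unadjusted p under 0.05 against 8.58% over all genes, and Ifnlr1 had the largest difference between IL-17C+ involved and WT skin at -0.58 ± 0.28.

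Sensors and adaptors (15 genes, Myd88 at 0.80 ± 0.32) and class I antigen presentation (11 genes, H2-Q4 at -0.82 ± 0.29) also had 0 members past the threshold in limma, each with 16 tests at an unadjusted p under 0.05 over the 12 comparisons, 8.89% and 12.1% of their tests against 8.58% over all genes. The 37 other interferon-induced genes had 50 tests (11.3%) at an unadjusted p under 0.05 against 8.58% over all genes. Among them the one that passed was Ifitm1, a small membrane protein that hinders virus entry. The WT pair of Ifitm1 was 2.76 and 2.27, the IL-6KO pair 2.47 and 2.64, the IL-17C+ involved pair 3.86 and 3.51, the IL-17C+ uninvolved pair 2.98 and 2.50, the IL-17C+KO involved pair 3.20 and 2.62, and the IL-17C+KO uninvolved pair 4.34 and 3.94, below the array medians throughout. Ifitm1 rose by 1.17 ± 0.21 in IL-17C+ involved skin over WT (adjusted p = 0.0132 in limma, 1.8% of all genes called). It rose by 1.58 ± 0.21 in IL-17C+KO uninvolved over IL-6KO skin (adjusted p = 0.00407, 0.397% called). Against IL-17C+ uninvolved skin it passed as higher in IL-17C+ involved (1.61% called) and IL-17C+KO uninvolved skin (0.712%). It passed as lower in IL-17C+KO involved against IL-17C+KO uninvolved skin (0.505%) and in the site by IL-6 interaction (2.58%). Neutrophil markers were high in the same groups, with means of 7.63 and 7.99 in IL-17C+ involved skin against 4.26 and 3.65 in WT, and their part in the rise of Ifitm1 was not tested. Iigp1, an interferon-induced GTPase, had the largest difference that did not pass, at -1.10 ± 0.36 between IL-17C+ involved and WT skin (adjusted p = 0.189).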

How the data were processed

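The authors deposited 1 table of array intensities for 12 pools of mouse skin, made with RMA in Affymetrix Expression Console per the submitters' processing notes. No versions are named there. The intensity values are linear (2.50 to 18385), so log2 was taken here. Of 41345 rows, 23521 name 1 gene, and the row with the highest mean stood for each of 22180 genes. Ifi35 and Lgals3bp had 2 rows each, whose differences between IL-17C+ involved and WT skin had the same sign. Array probes cannot be assigned among near-identical relatives here.

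Differences were tested with limma 3.58.1 in R 4.3.3 (lmFit, eBayes with trend) on group plus age over all 12 arrays (5 residual and 7.65 prior degrees of freedom), with Benjamini-Hochberg adjustment over all genes. Age is the replicate and was a block in the model. Differences between the ages correlated at -0.21 to 0.52 over 15 pairs of groups, above 0.1 in 7. The code was tested on simulated data. The number of arrays limits the precision.

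The members and lists were chosen with earlier results of these data known. All members could be named, with values on every array for 1 or 2 of each role by the size of the difference between IL-17C+ involved and WT skin. From each pathway list came up to 3 genes past the threshold and the largest other difference between IL-17C+ involved and WT skin. The full values of Isg15, and Ifnb1 and Ifng, were chosen after they were seen. Alternatives were a model without age, eBayes without trend, a filter on dim genes, a further quantile normalization, the mean of all rows, a muscle covariate and leaving out each array. The muscle covariate stood beside group and age, so its slope comes from differences between the 2 arrays of a group. It cannot show the part of muscle in a difference between groups.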

Additional observations from a re-analysis of the deposited data

Results flagged for a closer look

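In 4 comparisons the median difference of the members had opposite signs at 10 and 14 weeks. For IL-17C+ uninvolved against WT skin it was 0.45 at 10 weeks and -0.36 at 14 weeks. For IL-17C+ involved against IL-17C+ uninvolved skin it was -0.80 and 0.11. For IL-17C+KO involved against IL-17C+KO uninvolved skin it was -0.0312 and 0.11, and for IL-17C+KO involved against IL-17C+ involved skin 0.13 and -0.0340. With 1 array on each side at each age, these differences between the ages were not tested. The 2 largest gaps share the IL-17C+ uninvolved array at 10 weeks.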

How the results depend on the processing

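The count of members past the threshold was 0 in all 12 comparisons, and it was 0 in 199 of 215 counts under the 18 alternatives. With a filter that kept genes brighter than the array median on 2 or more arrays (12425 genes, 29 of them members) it was 1, Usp18, in 3 comparisons: IL-17C+ involved against WT (adjusted p = 0.0486 in limma), against uninvolved skin, and the site by IL-6 interaction. Of the genes tested there, 4.27%, 3.4% and 5.24% were called, and fewer genes were tested. With quantile normalization again it was 1, Tap1, for IL-17C+ involved against WT (adjusted p = 0.0437) and for that interaction (adjusted p = 0.0457), where 2.67% and 3.05% of all genes were called, and the cause was not tested. Leaving out 1 array gave 0 to 1 members for IL-17C+ involved against WT (Usp18 without the 10-week WT array, Gbp3 without either IL-17C+ uninvolved array). It gave 0 to 1 for IL-17C+ involved against uninvolved skin (Usp18 without either WT array, Bst2 without the 14-week IL-17C+ uninvolved array). It gave 0 to 1 for the transgene by IL-6 interaction (Usp18 without the 10-week WT array), and 0 to 2 for the site by IL-6 interaction (Usp18 and Tap1 without either WT array, Usp18 without the 14-week IL-17C+ involved array, Usp18 and Bst2 without the 14-week IL-17C+ uninvolved array). In the fits without 1 array that called a member, 1.01% to 3.3% of all genes were called. With no replicate block (no age in the model), with eBayes without the trend, with the mean of all rows and with the muscle covariate it was 0 in every comparison that could be fitted. Under the muscle covariate Xaf1 turned from -0.74 to 0.19 for IL-17C+ involved against WT (cause not tested). The median of the members kept its sign under all alternatives for IL-17C+ involved against WT (-0.36 to -0.07) and IL-6KO against WT (-0.44 to -0.19). For IL-17C+KO involved against IL-17C+ involved skin it ran from -0.11 (10-week IL-17C+ involved array left out) to 0.21, and for IL-17C+KO involved against IL-6KO skin from 0.03 to 0.25.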
